A study of Mus musculus with 8 samples.

Results

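The replication-dependent histone genes of mouse encode the histones that package newly copied DNA. They were chosen by symbol alone, as the genes named Hist1h, Hist2h, Hist3h or Hist4h followed by a class letter. Of 70 such symbols known to the gene name table, 46 genes had a row in the files, among 17772 genes used in all, and 24 had none and were not analysed here. The 46 comprised 5 H1, 14 H2A, 13 H2B, 4 H3 and 10 H4 genes. By cluster, 38 belonged to Hist1 on chromosome 13, 7 to Hist2 on chromosome 3 and 1, Hist3h2ba, to chromosome 11.

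The study asked how different enhancers contribute to the function of Sox2 in mouse embryonic stem cells. RNA was measured in 8 samples of E14TG2a, an embryonic stem cell line of strain 129/Ola, at passages 3 to 6. WT cells were compared with E1-KO, E2-KO and E3-KO cells, in each of which CRISPR/Cas9 had removed a different enhancer, with 2 biological replicates a group. All 4 groups were grown without feeder cells on gelatin with LIF, the GSK3 inhibitor CHIR99021 and the MEK inhibitor PD0325901. The labels used here do not say where the 3 enhancers lie or how many clones stand behind each knockout, so a difference between lines and a difference between clones cannot be told apart.

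Histone messengers of this kind are made in bulk during S phase, when chromatin doubles. They end in a conserved stem-loop bound by the protein SLBP in place of a poly(A) tail, and they are degraded quickly when DNA synthesis stops. The core histones H2A, H2B, H3 and H4 form the nucleosome, and the linker histone H1 binds where DNA enters and leaves it. Embryonic stem cells divide rapidly and spend much of their cycle in S phase. The libraries were made from total RNA with a total RNA kit, so that a poly(A) tail was not what selected the RNA, per the labels' protocols.

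The stem-loop was searched in the annotated transcripts because it is what sets these messengers apart from other RNAs. It was present in 31 of the 46 transcripts. It was in 3 of 5 H1, 8 of 14 H2A, 8 of 13 H2B, 3 of 4 H3 and 9 of 10 H4 genes. For the remainder only these letters in the annotated transcript were looked for. Some of these transcripts are annotated as short, such as Hist1h4k at 312 bases, Hist1h2ba at 384 and Hist1h2aa at 390. A loop past their annotated end would be missed. Others without a match are longer, such as Hist1h2bc at 1156 bases and Hist2h2be at 2620, and why they had none was not tested. H1, H2A, H2B and H3 genes mostly shared 1 form, which 18 genes carried, whereas the H4 genes carried 3 other forms in 5, 2 and 2 genes. Sites of 26 bases are shown 5′ to 3′ as DNA from the GENCODE M21 transcripts (build GRCm38), with the 16 bases of stem and loop in capitals, for an H2A gene, an H3 gene and the H4 forms.
Hist1h2ad: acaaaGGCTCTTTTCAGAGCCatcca
Hist1h3a: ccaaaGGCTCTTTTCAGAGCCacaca
Hist1h4c: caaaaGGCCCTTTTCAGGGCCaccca
Hist1h4i: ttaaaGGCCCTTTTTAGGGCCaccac
Hist1h4j: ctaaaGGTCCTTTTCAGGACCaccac
The base pairs of the stem differ between the H2A and H4 forms, and all 5 lines have T at each of 4 successive places in the middle, which in Hist1h4i are followed by another T.

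Promoters were read for the genes on which the results turn, as the 250 bases before the RefSeq start (build GRCm38.p6), of which 41 of 46 genes had an entry. The CCAAT box, TATAAA for the TATA box, ATTTGCAT for the octamer of H2B promoters and AAACACA for the H1 box were searched on both strands over 300 bases, from 250 before to 50 after the start. They are in capitals below, reverse-strand matches included. No matches overlap in these lines.
Hist1h2aa, chr13:23934187-23934436, plus strand, the interval shared with Hist1h2ba: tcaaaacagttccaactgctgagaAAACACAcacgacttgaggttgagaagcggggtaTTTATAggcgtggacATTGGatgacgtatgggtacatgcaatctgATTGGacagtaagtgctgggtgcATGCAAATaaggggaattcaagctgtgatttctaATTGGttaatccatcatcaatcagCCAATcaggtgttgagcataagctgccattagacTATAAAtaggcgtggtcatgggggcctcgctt
Hist1h2ad, chr13:23574131-23574380, plus strand, the interval shared with Hist1h2bf: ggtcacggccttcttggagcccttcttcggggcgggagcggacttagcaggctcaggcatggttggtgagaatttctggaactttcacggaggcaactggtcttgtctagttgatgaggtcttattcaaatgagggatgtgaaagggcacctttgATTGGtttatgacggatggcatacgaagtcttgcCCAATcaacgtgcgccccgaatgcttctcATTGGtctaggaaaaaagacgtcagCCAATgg
Hist2h3b, chr3:96268404-96268653, plus strand: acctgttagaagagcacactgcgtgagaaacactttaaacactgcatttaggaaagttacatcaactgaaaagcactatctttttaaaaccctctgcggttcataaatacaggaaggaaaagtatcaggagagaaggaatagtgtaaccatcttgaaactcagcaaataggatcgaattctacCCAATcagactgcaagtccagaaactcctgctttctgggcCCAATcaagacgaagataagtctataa
Hist1h4j, chr13:21734784-21735033, plus strand: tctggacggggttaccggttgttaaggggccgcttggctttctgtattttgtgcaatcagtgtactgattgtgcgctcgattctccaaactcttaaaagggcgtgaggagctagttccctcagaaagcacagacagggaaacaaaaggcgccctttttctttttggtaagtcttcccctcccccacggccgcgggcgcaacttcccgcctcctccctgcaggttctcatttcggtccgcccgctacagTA
Hist1h4k, chr13:21750554-21750803, minus strand: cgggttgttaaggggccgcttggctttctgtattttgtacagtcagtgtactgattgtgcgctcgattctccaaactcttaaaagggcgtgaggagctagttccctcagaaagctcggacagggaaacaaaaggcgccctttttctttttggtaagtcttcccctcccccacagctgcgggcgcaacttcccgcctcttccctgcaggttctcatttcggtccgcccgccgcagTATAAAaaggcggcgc
In the Hist1h2ad line only the last 184 bases lie between the annotated starts of Hist1h2ad and Hist1h2bf. The bases before them lie within the Hist1h2bf transcript. In the Hist1h4j line the final capitals begin a TATAAA that runs across the RefSeq start. Over a stretch of 236 aligned bases 226 (95.8%) were identical between Hist1h4j and Hist1h4k, the only pair of promoters that was aligned. CCAAT occurred in 34 of 41 histone promoters (82.9%) against 37.9% of 27025 RefSeq promoters, in all 32 windows outside class H4 and in 2 of 9 H4 windows. TATAAA occurred in 63.4% against 14.2%. The octamer occurred in 6 of 13 H2A and 4 of 11 H2B windows (24.4% of all 41, against 1.75%), and the H1 box in 4 of 5 H1 windows against 7.14% of all promoters. Head-to-head partners share bases of their windows, so these counts are not over independent sequences, and a match is a description of letters only.

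Values were gene levels taken as FPKM (fragments per kilobase of transcript, scaled to the library's total), whose totals were 448848 to 525045 per sample. The number of reads was not given, and relative depth read from the steps between low values was 0.787 to 1.01 of the first WT sample. All 10 embryonic stem cell markers had a row, with summed levels of 2820 to 2925 FPKM in WT, 2534 to 2611 in E1-KO, 2642 to 2833 in E2-KO and 2200 to 2481 in E3-KO. In the test against WT described below, 1, 3 and 1 of the 10 rose and 5, 4 and 6 fell in E1-KO, E2-KO and E3-KO. Of all tested genes 15.1%, 14.2% and 13.9% rose and 22.9%, 21.9% and 30.7% fell in the same order. Of the 8 fibroblast feeder markers 6 were under 1 FPKM in every sample. Their sum was 3.28 to 3.39 FPKM in WT, 5.34 to 5.60 in E1-KO, 3.51 to 4.45 in E2-KO and 4.68 to 5.10 in E3-KO. Of the 2 tested, 1 rose in each knockout. Other lineage markers were low and also moved with the groups. The neural list (3 of 5 with a row) summed to 5.54 to 6.43 FPKM in WT, 9.76 to 11.1 in E1-KO, 8.39 to 8.66 in E2-KO and at least 11.5 in E3-KO, and its members Pax6 and Nes rose in E1-KO, Pax6 in E2-KO and Nes in E3-KO. The trophectoderm list (6 of 6) summed to 53.5 to 57.0 in WT, 37.4 to 43.4 in E1-KO, 34.9 to 38.2 in E2-KO and 53.2 to 65.9 in E3-KO, where Krt8 rose by 1.16 (and by 0.64 in E1-KO). Krt18 and Tfap2c fell in E1-KO and E2-KO, and the defining markers Cdx2 and Elf5 were under 1 in every sample. The primitive endoderm list (4 of 6, 3 of them under 1 in every sample) summed to 1.58 to 1.59 in WT, 0.642 to 0.779 in E1-KO, 0.947 to 1.21 in E2-KO and 2.38 to 4.61 in E3-KO, and the mesoderm list (5 of 5) to 1.47 to 3.02 in all samples. The part of these markers in the histone changes was not tested. Sox2 stood at 130.5 and 136.3 FPKM in WT, 58.0 and 60.3 in E1-KO, 113.6 and 97.5 in E2-KO, while E3-KO had 97.7 and 91.0, and it fell by 1.16, 0.34 and 0.50 on the log2 scale in E1-KO, E2-KO and E3-KO. In bulk RNA, fewer cells in S phase and less histone RNA per cell cannot be told apart.

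Histone genes spanned a wide range of levels. Averaged over the 8 samples, the highest were the H4 gene Hist1h4d at 1868 FPKM, the linker histones Hist1h1a at 1157 and Hist1h1c at 1060, the H3 gene Hist1h3a at 1023 and the H2A gene Hist1h2ak at 903. The lowest were the H2B genes Hist1h2br at 0.512, Hist2h2be at 0.367 and Hist1h2bq at 0.243, which fell under the minimum mean of 1 FPKM and were not tested, leaving 43 of the 46. These are short genes: 41 of 46 had 1 exon, and the median transcript was 579 bases long with 58.6% GC, against 3336 bases and 49.8% over all tested genes.

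**Figure D1:**
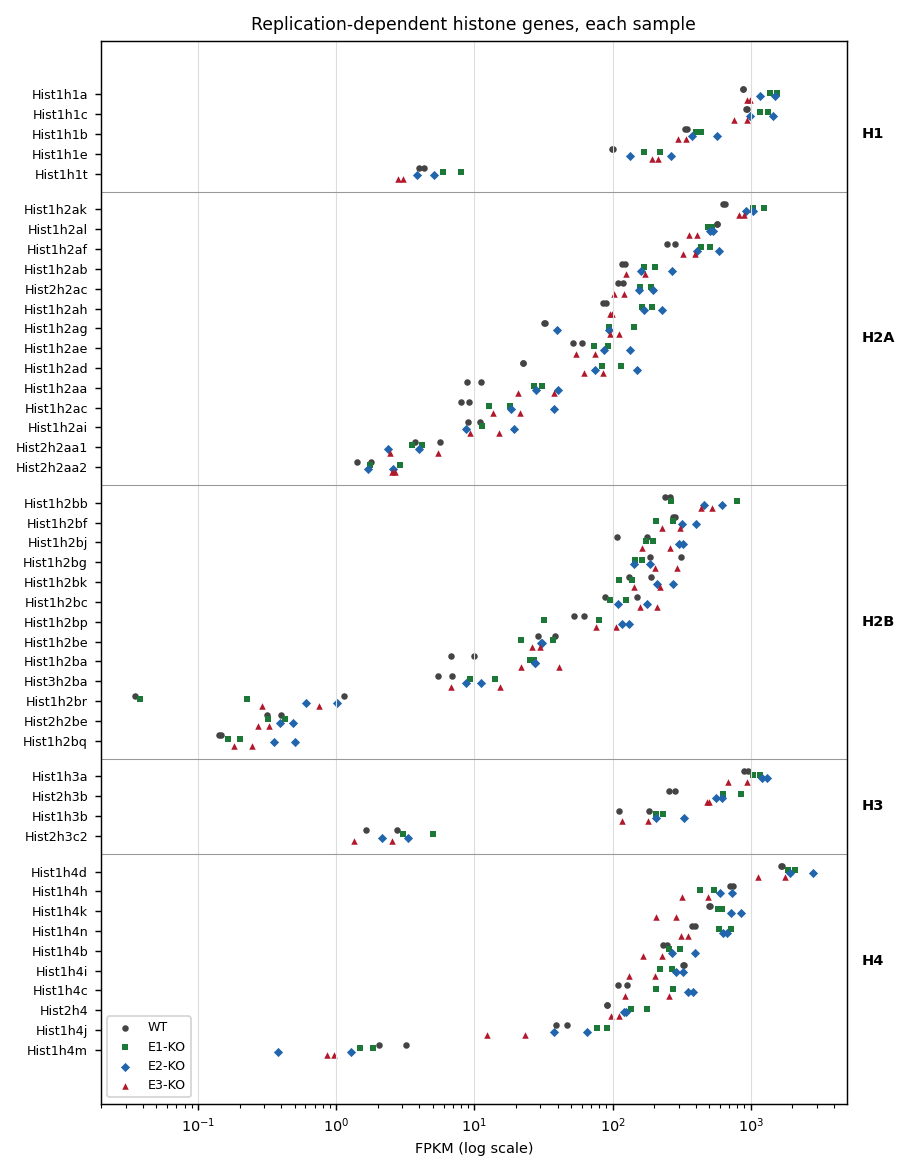
Level of each of the 46 genes in each of the 8 samples, by class and in order of mean level, on a log axis of FPKM; each symbol is 1 sample. Levels run from under 1 FPKM for 3 H2B genes to above 1000 for Hist1h4d, and the triangles of E3-KO sit left of the WT circles for 7 of 10 H4 genes.

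Together the 46 genes summed to 10930 and 10960 FPKM in WT, 15920 and 13290 in E1-KO, 17520 and 14320 in E2-KO, with E3-KO at 12150 and 9613. The samples of E1-KO and E2-KO all stood above WT, and those of E3-KO lay on either side of it. As a share of all FPKM this was 2.35% and 2.30% in WT, 3.31% and 2.80% in E1-KO, 3.34% and 3.03% in E2-KO, while E3-KO had 2.57% and 2.14%. The ratio of means to WT was 1.33, 1.45 and 0.994 in E1-KO, E2-KO and E3-KO. The samples of a knockout differed more than those of WT: replicate 1 was higher than replicate 2 for 36, 34 and 37 of 43 genes in E1-KO, E2-KO and E3-KO, by a median log2 of 0.26, 0.34 and 0.40, and for 16 of 43 in WT, while the median over all genes was -0.04 to 0.05. Over all 43 genes the median absolute difference between replicates was 0.13 in WT and 0.26, 0.40 and 0.45 in the same 3 knockouts, against 0.11 to 0.18 for all tested genes.

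**Figure D2:**
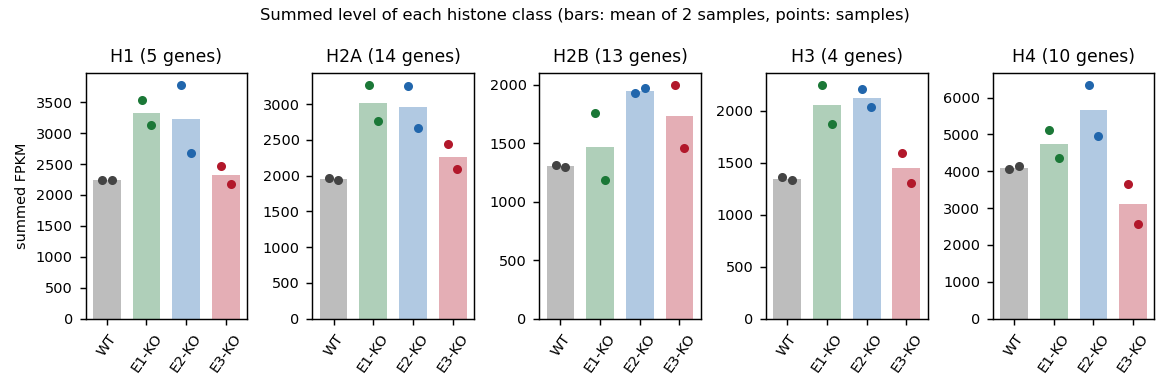
Summed FPKM of each histone class in WT, E1-KO, E2-KO and E3-KO; bars are means of 2 samples, points are the samples, and axes start at 0. H1, H2A, H3 and H4 stand above WT in every E1-KO and E2-KO sample, and H2B in every E2-KO and E3-KO sample. H2A also stands above WT in E3-KO. H4 is the class whose 2 E3-KO samples, 3641 and 2577, both lie under WT.

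Where 3 values follow each other without a group name they are those of E1-KO, E2-KO and E3-KO, in that order. Gene by gene, the knockouts were compared with WT on log2(FPKM + 1) with limma, adjusted over 11299 genes and called at an adjusted p under 0.05. In E1-KO 16 of 43 histone genes (37.2%) rose and 0 fell, where 15.1% of all tested genes rose and 22.9% fell. At an unadjusted p under 0.05 in the same limma fit 2 were lower. In E2-KO 20 (46.5%) rose and 1 fell, against 14.2% and 21.9% of all genes. In E3-KO 8 (18.6%) rose and 6 (14.0%) fell, against 13.9% and 30.7%. In either direction, 38.0%, 36.1% and 44.7% of all genes were called. These shares over all genes also stand beside the counts by class and list below. The median log2 change of the 43 was 0.60, 0.60 and 0.16, beside -0.061, -0.076 and -0.15 over all tested genes.

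The genes that passed differed from knockout to knockout. In all 3 knockouts 6 rose, namely Hist1h1e, Hist1h2aa, Hist1h2ad, Hist1h2ak, Hist1h2ba and Hist2h3b. In both E1-KO and E2-KO 13 rose, and 16 of 43 passed the test in no knockout. Hist1h4j and Hist1h4k rose in one knockout and fell in another. Both knockout samples stood above both WT samples for 30, 30 and 17 of the 43 genes, where 33.1%, 29.6% and 25.8% of all tested genes did. They stood below for 6, 3 and 9, where 43.9%, 42.2% and 48.4% of all tested genes did. The 3 comparisons share the same WT samples. Left-out libraries moved these counts: 9 rose in E1-KO without E1-KO replicate 1 and 10 without WT replicate 2, in E2-KO 10 without either WT sample and 13 without E2-KO replicate 1, and in E3-KO 5 without E3-KO replicate 1. A correction of each sample for GC content and length gave 14 higher and 6 lower in E1-KO, 9 and 5 in E2-KO, but 6 and 12 in E3-KO, with medians of 0.33, 0.19 and -0.18.

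**Figure D3:**
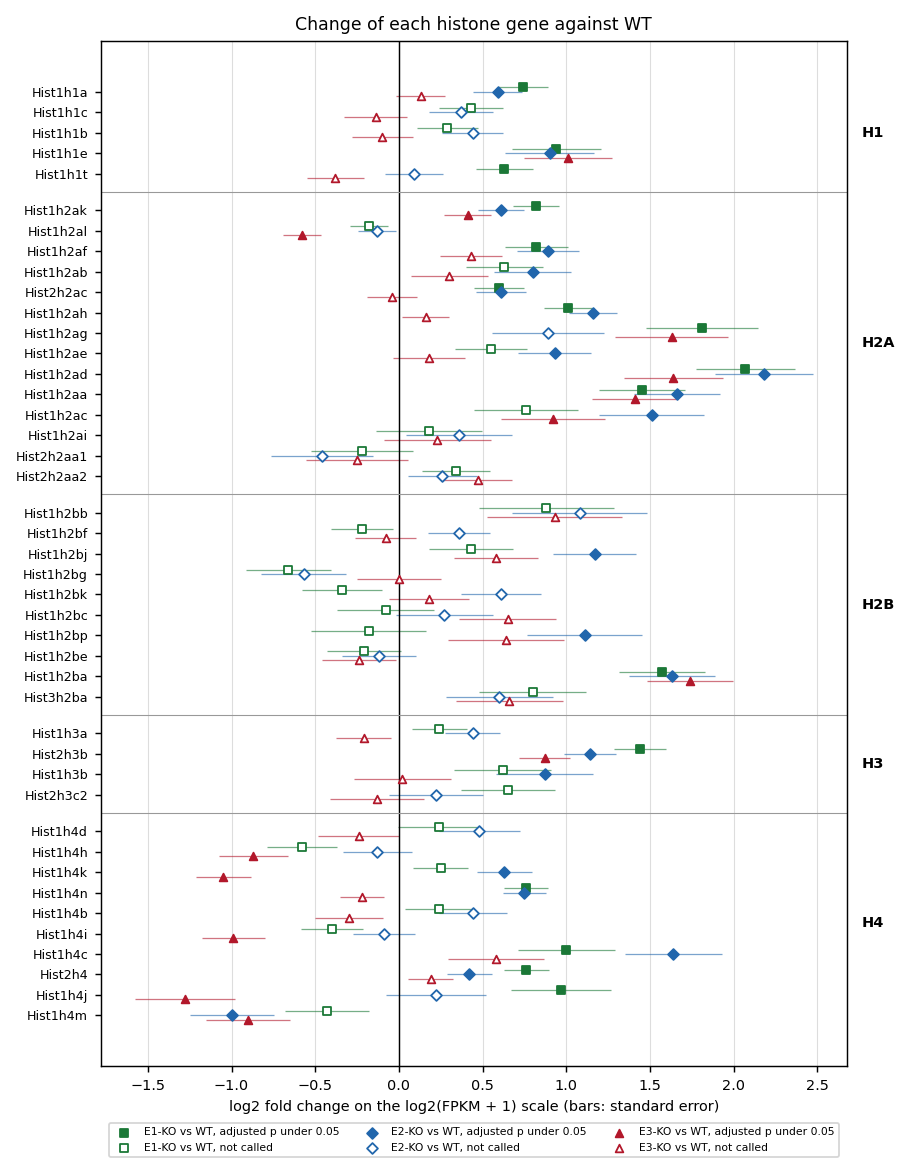
Log2 fold change of the 43 tested genes in each knockout against WT, by class and in order of mean level; bars are standard errors and filled symbols have an adjusted p under 0.05. H1, H2A, H3 and H4 symbols lie mostly right of 0 in E1-KO and E2-KO, as those of H2B do in E2-KO. Of 10 H4 genes 5 have filled E3-KO triangles left of 0.

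Of the 5 linker histone genes 3, 2 and 1 rose, which were Hist1h1a, Hist1h1e and Hist1h1t in E1-KO, Hist1h1a and Hist1h1e in E2-KO and Hist1h1e in E3-KO, with medians of 0.63, 0.44 and -0.10, and the last was 0.07 under median-ratio scaling. Summed H1 was 2249 and 2248 FPKM in WT, 3535 and 3127 in E1-KO, 3779 and 2680 in E2-KO, while E3-KO had 2471 and 2183. Hist1h1a, which carried 41.6% of the H1 signal, stood at 874 and 880 FPKM in WT, 1547 and 1379 in E1-KO, 1487 and 1174 in E2-KO, with E3-KO at 982 and 935. Its samples were above WT in all 3 knockouts, but only the first 2 groups passed the test, with a log2 change of 0.74 (SE 0.148, limma adjusted p = 0.00535) against 0.59 in the second. The call in E1-KO was lost without E1-KO replicate 1 and that in E2-KO without either WT sample. Hist1h1e was at 101.5 and 99.4 FPKM in WT and rose in each knockout, by 0.94, 0.90 and 1.01. Its annotated transcript shares 19.5% of its 150-base windows with Hist1h2be, and its calls were lost in all 3 comparisons without either WT sample or without replicate 1 of the knockout. Hist1h1t, a linker histone of male germ cells, was near 4 FPKM in WT and rose in E1-KO alone, by 0.63, a call lost without E1-KO replicate 1 or either WT sample. The abundant Hist1h1c and Hist1h1b had changes of 0.43 and 0.29 in E1-KO and of 0.37 and 0.44 in E2-KO, none of which passed the test.

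Of the 14 H2A genes, the largest class, 7, 9 and 5 rose, and 1 fell in E3-KO. Without either WT sample the E2-KO count was 5 and the E3-KO count 3, as the latter also was without E3-KO replicate 1. The medians were 0.70, 0.84 and 0.35, and the last became -0.10 with the GC and length correction. Summed H2A was 1961 and 1933 FPKM in WT, 3268 and 2758 in E1-KO, 3257 and 2667 in E2-KO, while E3-KO had 2441 and 2087, so that every knockout sample was above both WT samples.

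Hist1h2ad (ENSMUSG00000071478, 1 exon, chr13:23574381-23574952, GRCm38) showed the largest rise of any histone gene in both E1-KO and E2-KO. Both WT samples were at 22.6 FPKM, followed by 115.4 and 83.9 in E1-KO, 150.7 and 74.6 in E2-KO, with E3-KO at 85.7 and 61.8, and every knockout sample was above both WT samples. The log2 change was 2.07 (SE 0.294, adjusted p = 0.00109) in E1-KO, 2.18 (adjusted p = 0.000974) in E2-KO and 1.64 (adjusted p = 0.00240) in E3-KO. It was called in every fit that left out 1 of the 8 libraries. Since 59.3% of its 150-base windows occur in other H2A genes, reads may have been split among these copies and its level is uncertain to that extent.

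Hist1h2aa encodes TH2A, a variant of male germ cells and early embryos. Its level was 8.84 and 11.1 FPKM in WT, 26.9 and 30.6 in E1-KO, 40.1 and 28.1 in E2-KO, while E3-KO had 37.5 and 20.8, again without overlap. The log2 change was 1.45, 1.66 and 1.41 (SE 0.257, adjusted p = 0.00302, 0.00177 and 0.00257), and none of its windows is shared with another histone gene. All 3 calls stood in each of the 8 fits without 1 library.

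Hist1h2ag, at 32.1 and 32.7 FPKM in WT, rose by 1.81 in E1-KO and 1.63 in E3-KO. In E2-KO its samples were far apart, at 39.3 and 93.8 FPKM, and the change of 0.89 did not pass the test. Hist1h2ac rose by 1.51 in E2-KO and by 0.92 in E3-KO, the latter call being lost without E3-KO replicate 1 or either WT sample. Hist1h2ak, the most abundant H2A gene with 35.5% of the class, stood at 651 and 633 FPKM in WT, 1240 and 1032 in E1-KO, 1036 and 923 in E2-KO, with E3-KO at 895 and 817. It rose by 0.82, 0.61 and 0.41, but with the GC and length correction its change became -0.14 in E2-KO and -0.11 in E3-KO. Hist1h2af and Hist1h2ah rose in E1-KO and E2-KO (Hist1h2ah by 1.01 and 1.16), Hist1h2ab and Hist1h2ae in E2-KO alone. Hist1h2ai, Hist2h2aa1 and Hist2h2aa2, all under 20 FPKM in every sample, passed in no knockout. Both calls of Hist1h2ah stood in every fit without 1 library. Other H2A calls lost in such fits were those of Hist1h2ae in E2-KO (WT replicate 1 or E2-KO replicate 1), of Hist1h2af in E1-KO (E1-KO replicate 1 or WT replicate 2) and E2-KO (WT replicate 2), of Hist1h2ab in E2-KO (either WT sample or E2-KO replicate 1), of Hist1h2ak in E2-KO (either WT sample) and E3-KO (5 of 8 fits), and of Hist2h2ac in E1-KO and E2-KO (either WT sample or replicate 1 of the knockout).

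The member that fell was Hist1h2al, which the annotation lists as a processed pseudogene at chr13:51202727-51203065, outside the main Hist1 blocks. It was at 571 and 573 FPKM in WT, 522 and 488 in E1-KO, 509 and 536 in E2-KO, while E3-KO had 411 and 358. All knockout samples were below WT, and the fall of 0.58 on the log2 scale passed the test in E3-KO alone (adjusted p = 0.00391).

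Of the 10 tested H2B genes 1, 3 and 1 rose, and 0 fell in the limma fits. In E1-KO and E3-KO the share that rose was 10.0%, under the 15.1% and 13.9% of all tested genes. Without WT replicate 1 the count in E2-KO was 1, and that in E3-KO was 2 without either WT sample and 3 without either E1-KO sample or E3-KO replicate 2. At an unadjusted p under 0.05 2 of all 43 histone genes were lower in each of E1-KO and E2-KO. The medians were -0.13, 0.60 and 0.61, and the first became 0.14 without E1-KO replicate 2. Summed H2B was 1315 and 1299 FPKM in WT, 1761 and 1185 in E1-KO, 1931 and 1973 in E2-KO, with E3-KO at 2000 and 1461, so the E1-KO samples lay on either side of WT.

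The gene that rose in all 3 knockouts was Hist1h2ba, which encodes TH2B, the germ cell partner of TH2A. It stood at 6.74 and 9.90 FPKM in WT, 25.5 and 27.2 in E1-KO, 27.5 and 27.4 in E2-KO, while E3-KO had 40.9 and 21.6. The log2 change was 1.57, 1.63 and 1.74 (SE 0.258, adjusted p = 0.00209, 0.00197 and 0.000998), and it was called in every fit without 1 library. In E3-KO it had the largest rise of any histone gene tested. Hist1h2bj and Hist1h2bp rose in E2-KO by 1.17 and 1.11, and the first call was lost without WT replicate 1 and the second without any sample of E2-KO or WT.

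Hist1h2bb, the most abundant H2B gene, had the widest spread between replicates: 241.4 and 260.6 FPKM in WT, 800.6 and 266.3 in E1-KO, 456.7 and 618.2 in E2-KO, with E3-KO at 521.4 and 437.2. All 6 knockout samples were above both WT samples, yet the changes of 0.88, 1.08 and 0.93 (SE 0.404) did not pass the test. The other tested H2B genes, Hist1h2bf, Hist1h2bg, Hist1h2bk, Hist1h2bc, Hist1h2be and Hist3h2ba, passed in no knockout, with changes from -0.66 to 0.80.

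Many H2A and H2B genes lie head to head around a shared promoter. Of 7 pairs with starts under 1000 bases apart, 6 had both genes tested. The signed log2 change of the H2A gene was above that of its H2B partner in 5, 5 and 4 of 6 pairs, which counts the pair of Hist1h2ae and Hist1h2bg in E1-KO, at 0.55 and -0.66. All 6 knockout samples had a higher H2A to H2B ratio than both WT samples in 1 pair, Hist1h2ad and Hist1h2bf, whose annotated starts are 184 bases apart across the interval shown above. There the log2 ratio was -3.55 and -3.58 in WT, -1.24 and -1.30 in E1-KO, -1.40 and -2.08 in E2-KO, with E3-KO at -1.82 and -1.86. Hist1h2bf itself changed by -0.22, 0.36 and -0.08, none of which passed the test. Its sequence is mostly its own, with 10.6% of windows shared. In the pair of Hist1h2aa and Hist1h2ba, 305 bases apart, both genes rose by similar amounts, and the log2 ratio was between -0.12 and 0.53 in all 8 samples. The differences between partners were not tested.

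**Figure D4:**
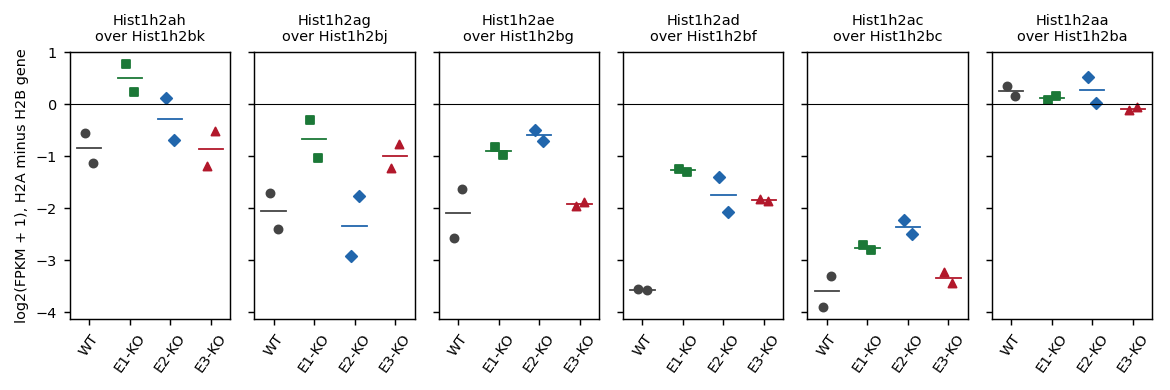
Difference in log2(FPKM + 1) between the H2A and the H2B gene of each of the 6 head-to-head pairs, by sample; points are samples and lines the mean of 2. In the pair of Hist1h2ad and Hist1h2bf all 6 knockout samples lie above the WT samples at -3.55 and -3.58, and in the pair of Hist1h2aa and Hist1h2ba all samples lie near 0.

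Class H3 had 4 members with a row. In E1-KO 1 rose, in E2-KO 2 and in E3-KO 1, with medians of 0.63, 0.66 and -0.05, the last being 0.09 under median-ratio scaling. Hist2h3b (ENSMUSG00000074403, 1 exon, chr3:96268654-96269141, GRCm38) was at 281.9 and 254.7 FPKM in WT, 854.4 and 625.1 in E1-KO, 563.9 and 620.4 in E2-KO, while E3-KO had 479.8 and 500.0, so every knockout sample was above WT. It rose by 1.44 (SE 0.154, adjusted p = 0.000328), 1.14 (adjusted p = 0.000974) and 0.87 (adjusted p = 0.00229), and was called in every fit without 1 library. It shares 73.7% of its windows with the other H3 genes of its cluster, so its reads may belong in part to them. Hist1h3a, which carried 58.6% of the class, was at 893 and 960 FPKM in WT and 934 and 685 in E3-KO, and its changes of 0.24, 0.44 and -0.21 did not pass the test. Hist1h3b rose in E2-KO by 0.87, and this call was lost without 1 of 4 libraries (WT replicate 2, either E1-KO sample or E2-KO replicate 1).

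H4 was the class with more genes lower than higher in E3-KO against WT, as H3 also was with the GC and length correction (0 and 1 of 4). Of 10 genes 4 rose and 0 fell in E1-KO, where 2 of 43 histone genes were lower at an unadjusted p under 0.05 in the limma fit. In E2-KO 4 rose and 1 fell, and in E3-KO 0 rose and 5 fell (3 without WT replicate 2 or E3-KO replicate 2). The medians were 0.24, 0.43 and -0.59. The E3-KO median was below 0 under every alternative run, from -0.90 to -0.30, while the E2-KO median became -0.03 with the GC and length correction. Summed H4 was 4049 and 4154 FPKM in WT, 5107 and 4356 in E1-KO, 6343 and 4969 in E2-KO, with E3-KO at 3641 and 2577. The ratio of means to WT was 1.15, 1.38 and 0.758.

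Hist1h4k (ENSMUSG00000064288, chr13:21750194-21750505, GRCm38) was at 502 and 503 FPKM in WT, 620 and 575 in E1-KO, 850 and 717 in E2-KO, while E3-KO had 205 and 286. It rose by 0.63 (adjusted p = 0.0164) in E2-KO, which became -0.06 with the GC and length correction, and in E3-KO fell by 1.05, also in log2 units (SE 0.164, adjusted p = 0.00125). The E3-KO call stood in every fit without 1 library. Hist1h4j (ENSMUSG00000067455, chr13:21735064-21735837), the gene with the near-identical promoter, was at 38.8 and 46.5 FPKM in WT, 91.2 and 77.2 in E1-KO, 37.7 and 65.4 in E2-KO, with E3-KO at 23.2 and 12.3. It rose by 0.97 (SE 0.299, adjusted p = 0.0319) in E1-KO and fell by 1.28 (adjusted p = 0.00835) in E3-KO, the latter call being lost without WT replicate 2 or E3-KO replicate 2. Both genes were thus low in both E3-KO samples, with no overlap with WT. Of their windows 12.5% in Hist1h4j and 53.4% in Hist1h4k occur in other H4 genes.

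Hist1h4i, Hist1h4m and Hist1h4h also fell in E3-KO, by 0.99, 0.90 and 0.87 on the log2 scale. Hist1h4i was at 321 and 327 FPKM in WT and at 202 and 131 in E3-KO, and its call stood in every fit without 1 library. Hist1h4m, at 0.382 to 3.18 FPKM, is the lowest H4 gene, fell in E2-KO too, by 1.00, and shares 85.8% of its windows with Hist1h4n. The 250 bases before the RefSeq starts of Hist1h4m and Hist1h4n also have the same letters, shifted by 1 base. Yet Hist1h4n rose by 0.75 where Hist1h4m fell by 1.00, and its E3-KO change of -0.22 did not pass the test. Whether H4 genes with like promoters change alike was not tested. The most abundant, Hist1h4d, holds 42.5% of the class and no shared window. It stood at 1649 and 1689 FPKM in WT, 2096 and 1858 in E1-KO, 2820 and 1927 in E2-KO, while E3-KO had 1774 and 1129. Its changes of 0.24, 0.48 and -0.24 did not pass the test. Hist1h4c was at 109.4 and 126.8 FPKM in WT, 274.3 and 204.9 in E1-KO, 384.2 and 354.1 in E2-KO, with E3-KO at 255.3 and 122.0. It rose by 1.00 in E1-KO (adjusted p = 0.0239) and 1.64 in E2-KO (adjusted p = 0.00321), and its 0.58 in E3-KO did not pass. Hist1h4n and Hist2h4 rose in E1-KO and E2-KO (Hist1h4n by 0.76 and 0.75), and Hist1h4b passed in no knockout. Other calls lost without 1 library were those of Hist1h4j in E1-KO (any sample of E1-KO or WT), of Hist1h4c in E1-KO and Hist1h4k in E2-KO (either WT sample or replicate 1 of the knockout), of Hist2h4 in E2-KO (any sample of E2-KO or WT), of Hist1h4h in E3-KO (WT replicate 2) and of Hist1h4m in E2-KO (WT replicate 1 or E2-KO replicate 2) and E3-KO (WT replicate 1 or either E3-KO sample).

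By position, the small Hist2 cluster summed to 490.3 and 475.6 FPKM in WT, 1234 and 929 in E1-KO, 898 and 901 in E2-KO, while E3-KO had 720 and 710. All 6 knockout samples were above WT, with ratios of means of 2.24, 1.86 and 1.48, and Hist2h3b alone made up 65.8% of this sum. Of its 6 tested genes 3 rose in E1-KO (Hist2h3b, Hist2h4 and Hist2h2ac), the same 3 in E2-KO and Hist2h3b in E3-KO. Of the 36 tested Hist1 genes 13, 17 and 7 rose and 0, 1 and 6 fell. Within Hist1, 4 of 13 genes (30.8%) of the block holding Hist1h4j and Hist1h4k were lower in E3-KO, near the 30.7% of all tested genes, and 1 of 22 in the block holding Hist1h1a, Hist1h2aa and Hist1h2ad. The difference between the blocks was not tested. Hist3h2ba, at 6.93 and 5.44 FPKM in WT, had changes of 0.80, 0.60 and 0.66 that did not pass the test.

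The knockouts were also set directly against each other. In E2-KO against E1-KO 0 of 43 genes were called by limma (background 0.823% in either direction, 0.478% higher and 0.345% lower), 11 had an unadjusted p under 0.05, and leaving out 1 library gave 0 to 1 call. In E3-KO against E1-KO 11 (25.6%) were lower and 0 higher, where 16.3% of all genes were lower, 9.4% higher and 25.7% called in all, and 3 members were higher at an unadjusted p under 0.05. The change was above 0 for 12 of the 43. In E3-KO against E2-KO 12 (27.9%) were lower and 0 higher, where 10.0% were lower, 5.48% higher and 15.5% called in all, and 1 was higher at an unadjusted p under 0.05. Without 1 library the calls in these 2 comparisons were 6 to 14 and 4 to 18, the lowest without E1-KO replicate 1 and without E2-KO replicate 1 or E3-KO replicate 2.

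The largest direct differences were those of H4 genes. Hist1h4j was lower in E3-KO than in E1-KO by a log2 of -2.24 (SE 0.299, adjusted p = 0.00113) and Hist1h4k by -1.30 (SE 0.164, adjusted p = 0.000847). Against E2-KO, Hist1h4k differed by -1.69 (adjusted p = 0.000812), Hist1h4j by -1.50 (adjusted p = 0.0124) and Hist1h4c by -1.06 (adjusted p = 0.0394). Hist1h4n was lower against both, by -0.98 and -0.97, and both calls stood in every fit without 1 library. Of the windows of Hist1h4n 77.2% occur in Hist1h4m, so its reads may belong in part to that gene. In all, 5 of 10 H4 genes were lower against E1-KO and 7 of 10 against E2-KO. The 5 became 3 without E1-KO replicate 1 or E3-KO replicate 2 and 8 without E3-KO replicate 1. The 7 became 4 without either WT or either E1-KO sample, and 3 without E2-KO replicate 1 or E3-KO replicate 2. The calls of Hist1h4c and Hist1h4h against E2-KO and of Hist1h4i against E1-KO were kept in 1 of 8 fits without 1 library, and that of Hist1h4b against E2-KO in 2 of 8. Of 10 H2B genes 0 were called by limma in either comparison, with medians of 0.16 against E1-KO and -0.14 against E2-KO, and 1 passed as higher against E1-KO without either E1-KO sample and as lower against E2-KO without E3-KO replicate 1. Outside H4, Hist1h2ah was lower by -0.85 and -1.0 and Hist2h2ac by -0.64 and -0.64. Hist1h1t was lower against E1-KO by -1.0 (adjusted p = 0.00348), at 3.07 and 2.82 FPKM against 8.01 and 5.92. The germ cell pair Hist1h2aa and Hist1h2ba did not differ between knockouts by more than their spread, at -0.04 and 0.17 against E1-KO (SE 0.257 and 0.258).

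Features of the sequences were set beside these changes as descriptions over the 43 tested genes. In E1-KO, E2-KO and E3-KO, 9, 12 and 4 of the 31 genes with a stem-loop in the annotated transcript rose, and 7, 8 and 4 of the 12 without one. In the same order 0, 1 and 4 of the former and 0, 0 and 2 of the latter fell. Because a loop past a short annotated end or one with other letters would be missed, this split describes the annotation and not which RNAs carry a loop. Genes with no 150-base window in common with another histone gene numbered 11, of which 6, 5 and 2 rose and 0, 0 and 1 fell. Their medians were 0.63, 0.48 and -0.04, beside 0.49, 0.69 and 0.18 for the 32 that share windows.

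The genes that make and use histone messengers were followed through 5 lists. Of all tested genes 15.1%, 14.2% and 13.9% rose and 22.9%, 21.9% and 30.7% fell. Some list counts lie near or under these shares, such as 3 higher and 4 lower of 20 S phase genes in E3-KO. Of 23 tested genes for transcription and 3′ end processing of histone RNA 9 rose and 3 fell in E1-KO, 7 and 5 in E2-KO, while E3-KO had 4 and 5, with medians of 0.22, 0.14 and 0.02. Ccne1, the cyclin whose kinase activates histone transcription at the start of S phase, was at 31.0 and 30.0 FPKM in WT, 95.0 and 99.3 in E1-KO, 115.9 and 88.1 in E2-KO, while E3-KO had 51.4 and 73.1. It rose by 1.64, 1.70 and 0.98 without overlap. Casp8ap2, a component of histone locus bodies also called FLASH, rose by 1.27, 0.63 and 0.37, whereas Lsm11, of the U7 particle that cuts the 3′ end, fell by 0.76, 0.78 and 0.79. Zfp473, another factor of that cleavage step, rose by 0.68, 0.48 and 0.70.

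Slbp and Npat, the stem-loop binding protein and the coactivator of histone promoters, were picked out after their values were seen. Slbp was at 68.0 and 69.8 FPKM in WT and changed by 0.44 (adjusted p = 0.0226), 0.14 and -0.05, of which the first passed. Npat changed by -0.18, -0.43 and -0.51, and the falls in E2-KO and E3-KO passed. Of 15 genes for decay and trimming of these messengers 5 rose and 3 fell in E1-KO, 4 and 3 in E2-KO, while E3-KO had 0 and 3. The helicase gene Upf1 fell by 0.64, 0.54 and 0.77 and the exonuclease gene Xrn1 by 0.58, 0.96 and 0.89, while Lsm6 and Lsm7 rose in E1-KO and E2-KO.

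Among 21 histone chaperones and assembly factors 7 rose and 4 fell in E1-KO, 7 and 2 in E2-KO, while E3-KO had 4 and 3. Nasp, a chaperone of H3 and H4, rose by 1.06, 0.73 and 0.57, Set by 1.00, 1.02 and 0.94, and Nap1l1, a chaperone of H2A and H2B, by 0.68, 0.48 and 0.61. Mms22l, which binds new histones at replication forks, fell by 0.41, 0.49 and 0.84.

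Most messengers of the replacement variants carry a poly(A) tail and are made throughout the cell cycle. Of 10 tested variants 3 were higher and 3 lower in each of E1-KO and E2-KO, but 1 higher and 6 lower in E3-KO. H2afy, encoding macroH2A, was at 162.5 and 159.3 FPKM in WT, 82.4 and 85.9 in E1-KO, 60.5 and 72.3 in E2-KO, with E3-KO at 58.9 and 60.0. It fell by 0.93, 1.27 and 1.42. The 2 genes for H3.3 went opposite ways: H3f3a fell by 0.69, 0.52 and 0.51 and H3f3b rose by 0.75, 0.69 and 0.64. H1fx rose by 0.70 and 0.56 in E1-KO and E2-KO and fell by 0.48 in E3-KO, but its E2-KO value was -0.06 with the GC and length correction.

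Of 20 S phase genes 5 rose and 2 fell in E1-KO, 6 and 0 in E2-KO, while E3-KO had 3 and 4, with medians of 0.16, 0.15 and -0.09. Tyms, for thymidylate synthesis, rose by 0.66, 0.81 and 0.70, and the helicase subunit gene Mcm5 by 0.78, 0.71 and 0.49. Cdc6, which loads that helicase, rose by 0.66, 0.57 and 0.30, while Mcm6 fell by 0.33 in E1-KO and by 0.53 in E3-KO. Mcm2, of the same helicase, rose by 0.31 and 0.36 in E1-KO and E2-KO and fell by 0.38 in E3-KO. It was picked out after its values were seen. In E3-KO against E1-KO 0 S phase genes were higher and 5 lower, and 0 and 7 of the 23 transcription and processing genes. Over all tested genes 9.4% were higher and 16.3% lower there. Against E2-KO both lists had 0 higher and 2 lower. That is near the 10.0% of all tested genes that were lower against E2-KO, where 5.48% were higher. The part of the S phase and processing genes in the histone changes was not tested.

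**Figure D5:**
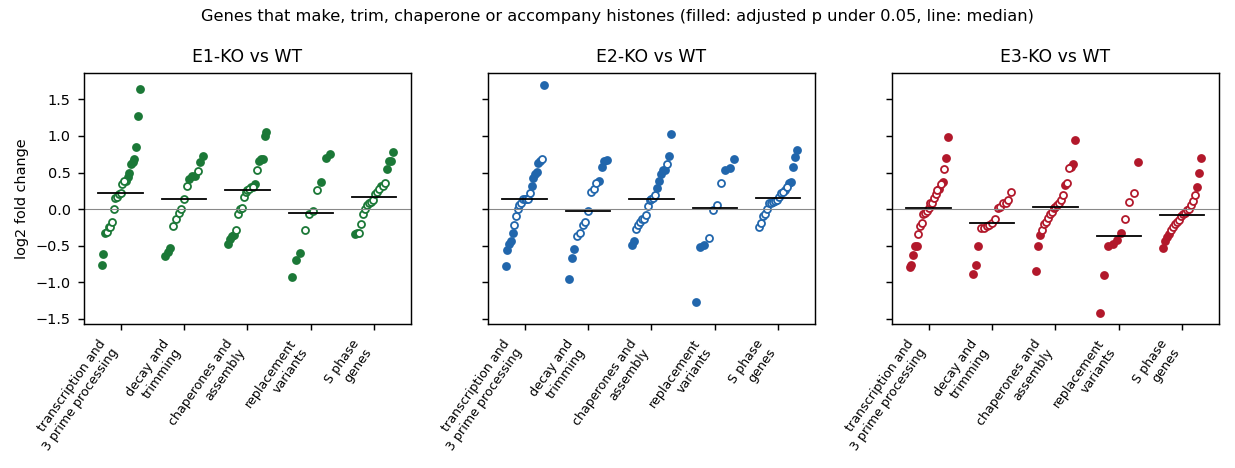
Log2 fold change against WT of the tested genes in 5 lists, 1 panel a knockout; each point is a gene, filled at an adjusted p under 0.05, and lines are list medians. The medians lie between -0.37 and 0.26, and single genes such as Ccne1 at 1.64, 1.70 and 0.98 stand above their lists.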

How the data were processed

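RNA of 8 samples (4 groups of 2 replicates) was sequenced as paired-end reads of 150 bases, per the labels' protocols. The authors deposited 1 value per gene identifier and sample; the unit is not stated and was taken as FPKM, which the authors' use of Cufflinks 2.2.1, per the submitters' processing notes, and the scale of the values fit. The same notes name Trimmomatic 0.36, TopHat2 2.0.12 and mm9, with no role given. Coordinates and transcripts here are GRCm38 (GENCODE M21), and promoters are RefSeq's of GRCm38.p6. No read counts were given, so depth is unknown, and no count model was used.

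Each sample had 18774 rows for 17812 identifiers. Of 660 repeated identifiers 620 were resolved by their neighbours' chromosome and strand and 40 were left out; no histone gene was repeated. The 550 identifiers with no symbol in the name table were not assigned to any gene. The 11299 genes with an average of 1 FPKM or more were fitted as log2(FPKM + 1) by limma 3.58.1 in R 4.3.3 (empirical Bayes with a mean trend, 4 residual degrees of freedom, two-sided, Benjamini-Hochberg adjusted over all genes, threshold 0.05). A fold change on this scale understates the change of low genes. With 2 samples a group, p-values measure only the spread between these samples. The script was tested on simulated data. Python 3.11.15 computed counts, sums and sequence matches.

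Named genes were the up to 5 highest of each class, the up to 5 called with the largest change per direction and knockout and up to 3 between knockouts, members outside Hist1, and up to 4 called per list and knockout; other members are named to account for all. Members and lists were chosen with earlier results of these data known. The list of other short or non-polyadenylated RNAs had none of its 16 genes in the files. Alternatives were other scalings, filters, pseudocounts, thresholds, a GC and length correction, a replicate block and each sample left out. Replicate numbers were not used to pair samples in the main fit.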

Additional observations from a re-analysis of the deposited data

Results flagged for a closer look

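Between knockouts, the difference itself passed the test (limma, Benjamini-Hochberg adjusted over all 11299 genes) for 11 histone genes in E3-KO against E1-KO and for 12 against E2-KO, all lower in E3-KO. Among them Hist1h4n and Hist1h2ah share 77.2% and 84.8% of their windows with other histone genes, which leaving out a library does not address. Against E1-KO, Hist1h4j differed by a log2 of -2.24 (adjusted p = 0.00113), Hist1h4k by -1.3 (adjusted p = 0.000847), Hist1h1t by -1.0 (adjusted p = 0.00348), Hist1h4n by -0.98 and Hist1h2ah by -0.85, and these 5 calls were kept in 8 of 8 fits that left out a library. The rest against E1-KO were Hist2h2ac at -0.64, Hist1h1a at -0.61, Hist1h4i and Hist2h3b at -0.58, Hist2h4 at -0.57 and Hist1h2al at -0.39, kept in 1 to 6 of 8. Against E2-KO, Hist1h4k differed by -1.69 (adjusted p = 0.000812), Hist1h2ah by -1.0 and Hist1h4n by -0.97, kept in 8 of 8. Hist1h4i at -0.9 was kept in 7 of 8, and Hist1h4j at -1.5 (adjusted p = 0.0124) and Hist2h2ac at -0.64 in 6 of 8. The remaining 6, Hist1h4c at -1.06 (adjusted p = 0.0394), Hist1h2ae and Hist1h4h at -0.75, Hist1h4b at -0.74, Hist1h3a at -0.65 and Hist1h2al at -0.44, were kept in 1 or 2 of 8.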

How the results depend on the processing

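Against WT, called histone genes numbered 16, 21 and 14 (E1-KO, E2-KO, E3-KO). Fitting a pair alone gave 30 in E1-KO (26 higher and 4 lower) and 4 in E3-KO against E2-KO (all lower). A log2 change of at least 1 left 7, 10 and 7 against WT and 3 and 3 between E3-KO and the other knockouts. An adjusted p under 0.01 left 11 in E2-KO and, for E3-KO against E1-KO and E2-KO, 5 and 3. Fitting all genes above 0 gave 7 and 5 for these 2 comparisons of E3-KO. Leaving out 1 library gave 9 to 21, 10 to 23 and 10 to 15 calls against WT, 0 to 1 in E2-KO against E1-KO, 6 to 14 in E3-KO against E1-KO and 4 to 18 against E2-KO. The medians then ranged 0.44 to 0.72, 0.43 to 0.75 and 0.05 to 0.29 against WT, -0.07 to 0.33 in E2-KO against E1-KO (-0.07 without E2-KO replicate 1), -0.54 to -0.20 in E3-KO against E1-KO and -0.66 to -0.28 against E2-KO. With GC and length correction the medians were 0.33, 0.19 and -0.18, and -0.08 in E2-KO against E1-KO; H1fx was -0.06, Hist1h2ak -0.14 and Hist1h4k -0.06 in E2-KO, and Hist1h2ak -0.11 in E3-KO, with or without the block. Median-ratio scaling, which moved the median of all genes in E3-KO from -0.15 to 0.003, gave 0.33 for the E3-KO median and summed WT levels of 2120 (H1), 1836 (H2A), 1232 (H2B), 1267 (H3) and 3866 (H4) FPKM. Scaling without the 50 highest genes gave 2254 for H1 in WT and 1886 for H2B in E2-KO. The cause of these shifts was not tested. Replicate differences correlated between groups at -0.041 to 0.092 over 6 pairs of groups for all genes, and at -0.149 to 0.292 for the histone genes. Such correlations do not register a shift common to the genes, such as the higher replicate 1 of histone genes in each knockout. Whether replicate number marks a shared batch was not tested. A replicate block gave 22, 22 and 16 calls against WT and 0 in E2-KO against E1-KO. For E3-KO against E1-KO and E2-KO it gave 16 and 16, or 19 (17 lower and 2 higher) with GC correction against E1-KO. Of the settings for single genes, 4999 kept their side of the threshold, 469 lost a call and 154 gained one. Another 8 reversed direction with a call in either fit. A change of sign with no call in either fit counts among the 4999.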
